A study of Mus musculus with 53 samples.

Results

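The 2 control populations of the study were set against each other: R1 mouse embryonic stem cells carrying a short hairpin RNA against luciferase (shLuc), and unmodified R1 cells with both Tbx3 alleles intact (+/+). R1 is a male line derived from the 129 strain. Both populations are wild type for Tbx3 per the labels. The R1 cells of the bulk libraries were grown in serum and LIF, a cytokine that sustains self-renewal, without a feeder layer. Each population has 1 library, so differences carry no error between replicates and no p-value, and culture, clone, read length and library batch cannot be told apart from the hairpin vector. The other bulk libraries, used here as a check, came from R1 cells with a hairpin against Tbx3 (shTbx3), with both Tbx3 alleles targeted (N/N) and with 1 targeted allele (+/N). The labels do not name the hairpin vector, the number of clones or the part of Tbx3 that was targeted. Of the 11647 gene names in the bulk table, 11361 entered the comparison. They reached 1 FPKM (fragments mapped, scaled by transcript length and library size) in at least 1 of the 2 libraries. A total of 208 microRNA, small nucleolar and small nuclear RNA genes and numeric names were left out, and 78 further genes were under 1 FPKM in both libraries.

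A short hairpin RNA is cut by Dicer and loaded into Argonaute, where it guides cleavage of matching transcripts. Luciferase has no counterpart in the mouse, so a luciferase hairpin is used as a control for delivery and processing of a hairpin rather than for loss of a gene. Mouse embryonic stem cells in serum and LIF hold a network around Pou5f1, Sox2 and Nanog, and they are known for a weak interferon response and for switching between naive and more advanced states. Differences are given as log2((shLuc FPKM + 1)/(+/+ FPKM + 1)), so a positive value means higher in shLuc cells. The added 1 makes the differences of genes near 1 FPKM smaller than their ratios. A gene was counted as higher or lower where the difference on this scale was at least 2-fold.

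Tbx3, the T-box factor targeted in the study, was at 13.8 FPKM in shLuc cells and 44.4 FPKM in +/+ cells, although neither population carries a change in the gene. The shLuc level was closer to the 15.1 FPKM of N/N cells than to the +/+ level. Dppa3, a maternal gene of the early embryo whose level varies between stem cells, stood at 29.1 FPKM in shLuc cells and 5.32 FPKM in +/+ cells, and the N/N level was 24.7 FPKM. The 2 controls thus differed by log2 -1.62 in Tbx3 and 2.25 in Dppa3. For Dppa3, 57.7% of the 26-base windows of the transcript also occur, letter for letter, elsewhere in the mm9 genome, against 0.706% for Tbx3. For windows of 100 bases the share was 0% for both genes.

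Repeated windows matter for reading the largest differences, and 4 coding stretches across an exon junction show what they look like. Each holds 100 coding bases in mm9 centred on an exon junction near the middle of the coding sequence, and the capitals mark the 26 bases centred on the junction, the shorter of the read lengths in the labels, which give single reads of 26 or 100 bases and not which library had which. In the gene itself these capitals are interrupted by an intron, so a match in the genome is a stretch without that intron somewhere else. The first 3 belong to ribosomal protein genes with large differences, and Fos is shown as a gene with few repeated windows.
Rpsa: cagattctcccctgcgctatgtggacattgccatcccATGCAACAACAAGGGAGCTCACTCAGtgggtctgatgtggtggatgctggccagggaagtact
Rpl19: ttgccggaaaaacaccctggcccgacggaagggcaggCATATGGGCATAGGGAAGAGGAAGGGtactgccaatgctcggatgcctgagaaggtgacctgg
Rps16: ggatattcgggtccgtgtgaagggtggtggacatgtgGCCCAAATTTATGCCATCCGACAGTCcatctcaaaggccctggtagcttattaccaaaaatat
Fos: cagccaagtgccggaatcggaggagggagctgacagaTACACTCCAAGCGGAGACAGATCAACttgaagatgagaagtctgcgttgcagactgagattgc
The capitals of Rpsa (gene on chromosome 9, 120036884 to 120041487, plus strand) were found at 15 places in mm9, those of Rpl19 (chromosome 11, 97888024 to 97891806, plus strand) at 3 and those of Rps16 (chromosome 7, 29135671 to 29137715, plus strand) at 3. Those of Fos (chromosome 12, 86814840 to 86818223, plus strand) were found at 0. All 100 bases, the longer read length, occurred at 0 places for Fos, at 1 for Rpl19 (chromosome 15, 7925260 to 7925359) and at 2 each for Rpsa and Rps16, including chromosome 3, 149735959 to 149736058, for Rpsa and chromosome 8, 48717827 to 48717926, for Rps16. Over the whole transcript, the share of 26-base windows found elsewhere was 56.5% for Rpsa, 93.4% for Rpl19 and 80.3% for Rps16.

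Of the 11361 genes, 635 (5.59%) were at least 2-fold higher and 522 (4.59%) at least 2-fold lower in shLuc cells. At 4-fold the counts were 90 and 79. The median difference was 0.02, and 7100 genes (62.5%) lay within 0.5 of 0. Across genes, Pearson r of log2(FPKM + 1) was 0.911 (n = 11361, each gene read in the same 2 libraries). Rescaling both libraries to the same, larger total over the genes kept changed the log2 ratio of every gene by -0.21 before 1 was added. It gave 554 higher and 1116 lower genes. Values rose while the added 1 and the 1 FPKM filter stayed as they were, so the added 1 and the filter counted for less. These counts mix that with the scaling. All 5 libraries summed to between 329197 and 390291 FPKM, and small RNA genes took 7.28% of that sum in shLuc and 5.44% in shTbx3 cells, against 20.5% in N/N, 22.4% in +/N and 19.6% in +/+ cells. The +/+ column holds no 0, with 0.0614 FPKM as its lowest value, while 179 genes are listed at 0 in shLuc, so no gene listed at 0 in +/+ cells is among the genes compared.

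**Figure D1:**
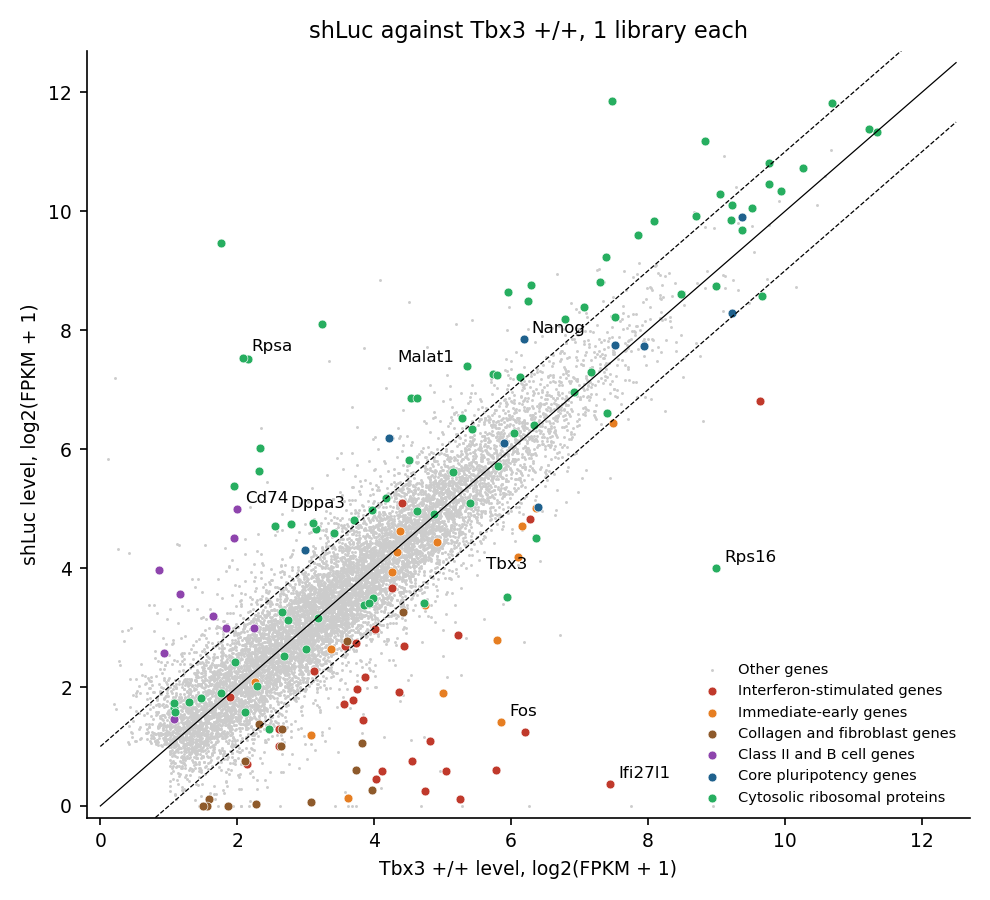
Level of each of the 11361 genes in shLuc (vertical) and Tbx3 +/+ (horizontal) cells as log2(FPKM + 1), 1 library each; the solid line marks equal levels, dashed lines a 2-fold difference on this scale, and colours 6 gene lists. Collagen genes and all but 1 gene each of the interferon-stimulated and immediate-early lists lie below the line, class II genes above it, and ribosomal protein genes on both sides.

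Gene copies and base composition moved with the differences. A repeated share could be computed for 11248 genes (99.0%). Genes with up to 1% repeated windows had a median difference of -0.07, those with 25% to 50% of 0.43 and those with over 75% of 1.02. Among the genes at least 2-fold higher, 305 of 614 with a value (49.7%) had over 25% repeated windows, against 37 of 505 (7.33%) of the lower genes and 9.602% of all. With only the 8507 genes that had at most 5% repeated windows, 215 (2.53%) were higher and 420 (4.94%) lower. GC content went the other way. Within those 8507 genes the median difference was 0.33 in the 2127 transcripts of lowest GC (33.0% to 46.8%) and -0.35 in the 2127 of highest GC (56.2% to 74.4%). When the median was set to 0 within each of 20 groups of GC, 417 genes were higher and 362 lower, and with the limit on copies as well 144 and 283. The shortest transcripts stood higher too, with a median of 0.17 for the 2812 up to 1844 bases and of -0.07 for the 2812 over 4300 bases. Values after this centring on GC and repeated shares are given below for genes and lists that they bear on. Whether read length, RNA selection or the mapping of copies differed between the libraries is not stated by the labels, and their part in the differences was not tested.

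**Figure D2:**
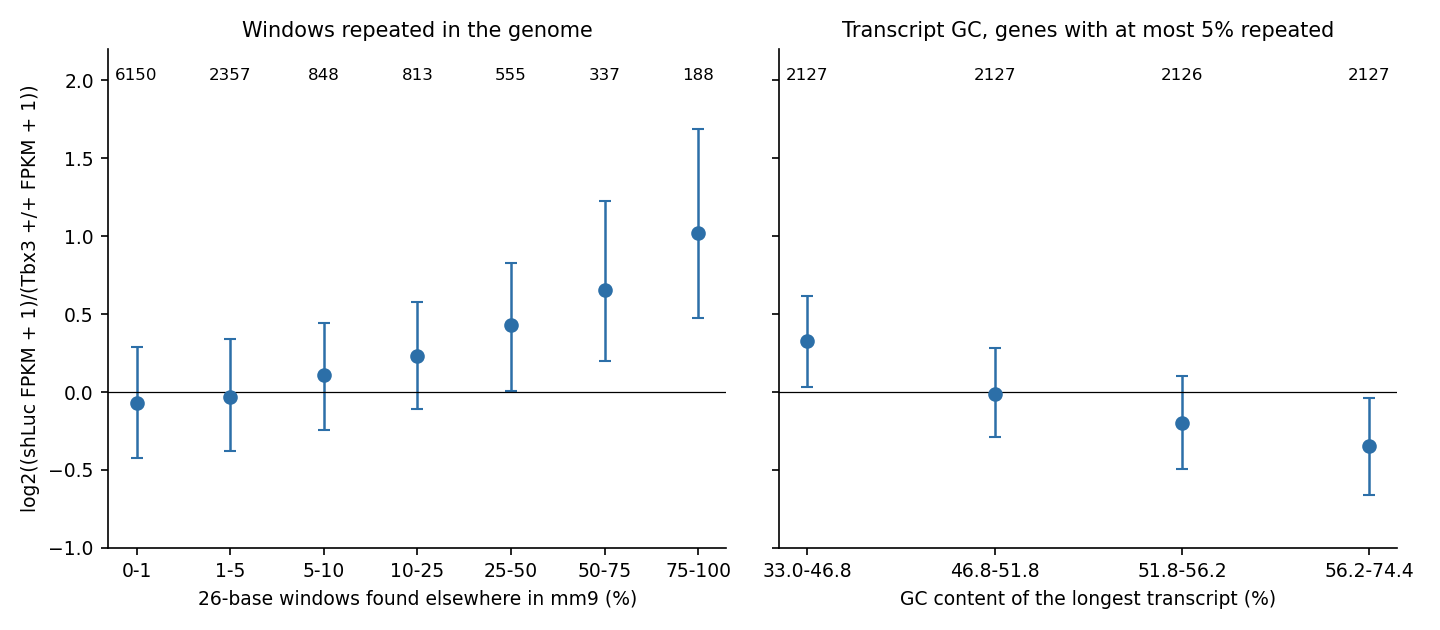
Median difference (points) and interquartile range (bars) by the share of 26-base transcript windows found elsewhere in mm9 (left) and, for genes with at most 5% repeated, by transcript GC content (right); numbers above are genes per group. The median climbs to 1.02 over 75% repeated windows and falls to -0.35 at the highest GC.

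The 25 largest differences each way, without predicted models and counting genes that reached 5 FPKM in shLuc or +/+ cells, were unlike in this respect. Of the 25 higher genes 17 had over 25% repeated windows, 4 had at most 5% and 3 could not be matched to the annotation. The 4 were Cd52, Cd74, H2-Ab1 and Malat1. Of the 25 lower genes 16 had at most 5% repeated windows and 3 had over 25%. The interferon list holds 10 of the 25 lower genes.

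Genes of the interferon response had the lowest median of the lists in shLuc cells. Interferons signal through JAK kinases to factors that include STAT2 and IRF9 and bind an interferon-response element and switch on antiviral genes. Of 30 such genes compared, 24 were at least 2-fold lower in shLuc cells and 0 higher, beside 4.59% and 5.59% of all genes, and the median was -1.88. With at most 5% repeated windows 15 of 18 were lower, with a median of -2.64, and after centring on GC 24 of 30 stayed past 2-fold. Their summed level was 356 FPKM in shTbx3 and 243 FPKM in shLuc, against 505 FPKM in N/N, 467 FPKM in +/N and 1586 FPKM in +/+ cells. The +/+ library was thus the highest of the 5 for this list.

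Promoters of 3 of these genes show the response element. They are the 3 genes with the largest lower differences among those whose RefSeq promoter (GRCm38.p6, 250 bases before to 50 after the gene start) holds, on either strand, the core GAAA, any 2 bases and GAAA again, so they were picked after their values were seen, and the capitals mark the core.
Isg15: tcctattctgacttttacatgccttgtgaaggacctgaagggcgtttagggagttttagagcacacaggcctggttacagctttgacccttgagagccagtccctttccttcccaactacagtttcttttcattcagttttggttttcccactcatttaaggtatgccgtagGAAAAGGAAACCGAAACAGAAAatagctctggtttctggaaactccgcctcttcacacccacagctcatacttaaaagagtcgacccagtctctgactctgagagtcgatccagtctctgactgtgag
Irgm1: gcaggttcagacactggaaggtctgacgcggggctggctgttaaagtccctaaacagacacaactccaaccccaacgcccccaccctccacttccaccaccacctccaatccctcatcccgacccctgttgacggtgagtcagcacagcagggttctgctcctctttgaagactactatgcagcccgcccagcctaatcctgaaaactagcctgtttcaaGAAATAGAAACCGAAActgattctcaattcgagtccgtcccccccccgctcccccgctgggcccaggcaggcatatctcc
Bst2: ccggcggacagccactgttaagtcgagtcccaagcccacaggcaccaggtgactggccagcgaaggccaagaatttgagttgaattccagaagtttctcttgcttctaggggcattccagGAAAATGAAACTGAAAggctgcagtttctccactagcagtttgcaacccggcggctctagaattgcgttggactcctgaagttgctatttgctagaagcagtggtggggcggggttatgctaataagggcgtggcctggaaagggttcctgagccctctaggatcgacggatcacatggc
The windows lie on the minus strand at chr4:156200769-156201068 for Isg15, chr11:48871371-48871670 for Irgm1 and chr8:71537423-71537722 for Bst2. The overlapping cores begin 78, 72 and 66 bases before the start of Isg15, 30 and 24 bases before that of Irgm1 and 130 and 124 bases before that of Bst2. Of the 21 compared interferon genes with a promoter in that table, 10 (47.6%) held the core, against 1079 of the 27025 genes with a promoter there (3.99%) and 271 of the 8148 among the genes compared (3.33%). It was held by 26 of 338 (7.69%) of the genes lower in shLuc cells and by 13 of 424 (3.07%) of those higher, the second share being near that of all genes compared. A gene with more than 1 promoter was counted once, if any of them held the core. A match says only that these letters are present.

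By role, the largest differences of the list were those of effectors. Ifi27l1, an interferon-inducible protein of mitochondria in human cells, was at 0.286 FPKM in shLuc cells and 173 FPKM in +/+ cells, and at 0.34 FPKM in shTbx3, 48.4 FPKM in N/N and 53.9 FPKM in +/N cells, so that both hairpin libraries were under 1 FPKM and the 3 allele libraries above 48. Isg15, a ubiquitin-like protein joined to other proteins during infection, was at 0.526 FPKM in shLuc cells and 53.9 FPKM in +/+ cells, with 9.10 FPKM in shTbx3, 4.33 FPKM in N/N and 3.66 FPKM in +/N cells. Of its windows 30.8% were repeated. Its shTbx3 level lay above the N/N and +/N levels, so the hairpin and allele libraries overlapped. Usp18, which removes Isg15 and dampens the receptor, was at 0.0814 FPKM in shLuc cells and 37.3 FPKM in +/+ cells. Irgm1, a GTPase that acts on membranes of infected cells, was at 1.37 FPKM in shLuc cells and 72.3 FPKM in +/+ cells, and Bst2, which tethers enveloped viruses to the cell, at 111 FPKM in shLuc cells and 795 FPKM in +/+ cells. The 2′-5′ oligoadenylate synthetase family, whose enzymes switch on RNase L, followed: Oas2 was at 1.13 FPKM in shLuc cells and 27.1 FPKM in +/+ cells, and its relatives Oasl1 and Oasl2 differed by -3.58 and -3.79. Rtp4, an interferon-induced chaperone of receptors, differed by -4.49, and Lgals3bp, a secreted galectin-binding protein that the interferon list holds, by -3.52.

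The regulators differed in part. Irf7, the factor that amplifies the response, was at 0.51 FPKM in shLuc cells and 32.04 FPKM in +/+ cells, while the signal transducers Irf9 and Stat2 were at 6.82 and 15.1 FPKM and at 11.7 and 18.1 FPKM, shLuc first. Irf1 was the 1 list gene above 0, at 33.2 FPKM in shLuc cells and 20.2 FPKM in +/+ cells, a difference of 0.69 that did not reach 2-fold. Stat2, Irf9 and Irf1 are named here for their role and were picked after their values were seen. The N/N and +/N levels of Usp18 and Irf7 lay between those of shLuc and +/+ cells. Usp18 had 0.615 FPKM in shTbx3, 2.66 FPKM in N/N and 3.27 FPKM in +/N cells, and Irf7 was at 0.218 FPKM in shTbx3, 2.89 FPKM in N/N and 2.94 FPKM in +/N cells. Of 9 genes of class I antigen presentation, which interferon also raises, 0 were higher and 1 lower, beside 5.59% and 4.59% of all genes. Their median was -0.17. Tapbp, which helps load peptide onto class I, was the lower gene at 8.37 FPKM in shLuc cells and 32.001 FPKM in +/+ cells, whereas the class I chain H2-K1 was at 41.8 FPKM in shLuc cells and 31.2 FPKM in +/+ cells and the immunoproteasome subunit Psmb8 at 7.35 FPKM in shLuc cells and 3.41 FPKM in +/+ cells.

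**Figure D3:**
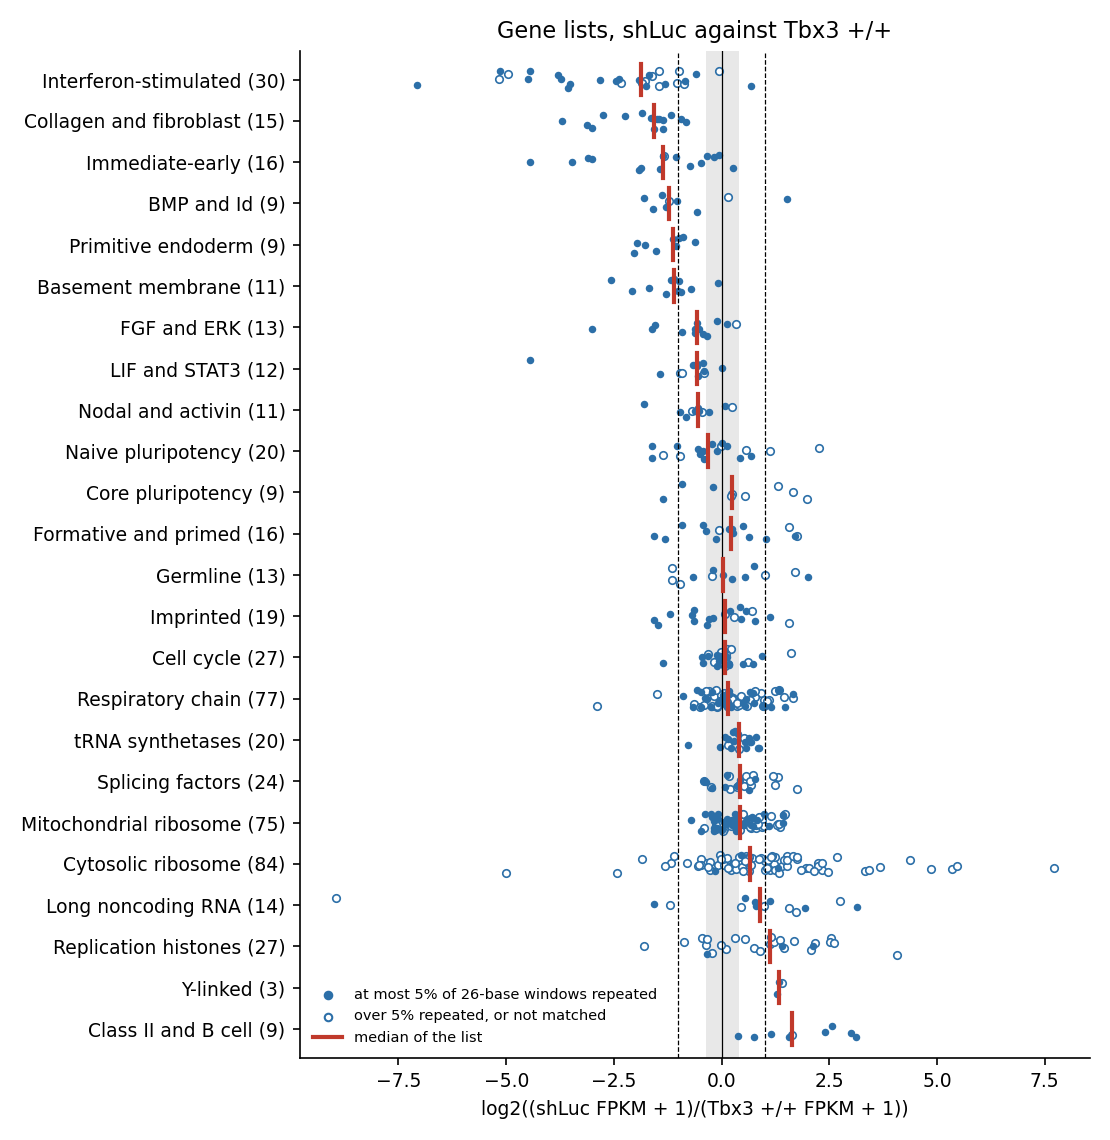
Difference between shLuc and Tbx3 +/+ cells for each gene of 24 lists (points; number of genes in brackets), with the list median (red bar), the interquartile range of all genes (grey band) and the 2-fold limits (dashed); open points have over 5% repeated windows or could not be matched. Interferon-stimulated, collagen, immediate-early, BMP, endoderm and basement membrane lists have medians below -1, and replication histones, Y-linked and class II genes above 1.

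Immediate-early genes, which growth factors and serum switch on within minutes, were lower in shLuc cells. Of 16 genes 10 were at least 2-fold lower and 0 higher, beside 4.59% and 5.59% of all genes, with a median of -1.35, or -0.93 and 7 lower after centring on GC. Fos, a subunit of the AP-1 factor, was at 1.65 FPKM in shLuc cells and 56.8 FPKM in +/+ cells, with 2.80 FPKM in shTbx3, 56.8 FPKM in N/N and 53.3 FPKM in +/N cells. Both hairpin libraries were under 3 FPKM and all 3 allele libraries above 53. Both hairpin libraries lay below all 3 allele libraries for 7 of the 16 genes, beside 19% of all genes, and the list median of shTbx3 over N/N was -0.25. Its partner Jun was at 2.75 FPKM in shLuc cells and 31.2 FPKM in +/+ cells, and Fosb at 0.0979 FPKM in shLuc cells and 11.2 FPKM in +/+ cells. Egr1, a zinc finger factor downstream of ERK, was at 5.93 FPKM in shLuc cells and 54.7 FPKM in +/+ cells, and Dusp1, a phosphatase that ends MAP kinase signalling, at 17.2 FPKM in shLuc cells and 67.97 FPKM in +/+ cells. Atf3 differed by -1.88. Junb stood at 25.3 and 70.3 FPKM in shLuc and +/+ cells, a difference of -1.44 that came to -0.98 after centring on GC. In shTbx3 cells Junb was at 45.4 FPKM, against 40.3 FPKM in N/N cells, and Atf3 at 3.32 FPKM, against 2.95 FPKM in N/N cells, so both genes were higher in shTbx3 than in N/N cells.

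Of 15 targets of serum response factor and genes of the actin cytoskeleton, 5 were lower and 0 higher, and the median was -0.25. Among all genes 4.59% were lower and 5.59% higher. Ctgf, a matricellular protein and target of YAP, was at 6.36 FPKM in shLuc cells and 104 FPKM in +/+ cells, with 21.6 FPKM in shTbx3, 122 FPKM in N/N and 118 FPKM in +/N cells. Its relative Cyr61 was at 5.78 FPKM in shLuc cells and 71.8 FPKM in +/+ cells, but at 67.9 FPKM in shTbx3, close to the allele libraries, so the 2 hairpin libraries parted. Thbs1, thrombospondin, was at 1.34 FPKM in shLuc cells and 13.2 FPKM in +/+ cells. Actb, beta-actin, was at 421 FPKM in shLuc cells and 1147 FPKM in +/+ cells, with 47.9% repeated windows. Srf itself was at 12.04 FPKM in shLuc cells and 28.9 FPKM in +/+ cells, a difference that came to -0.89 after centring on GC.

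Signalling pathways that keep or end the stem cell state were read next. Among all genes 5.59% were higher and 4.59% lower, so a single call in a short list is not a result about the list. In the FGF and ERK list 3 of 13 genes were lower, the feedback phosphatases Dusp6 (11.7 and 37.5 FPKM, shLuc first) and Dusp4 (4.93 and 16.2 FPKM) and Egr1, and 0 were higher. In the LIF and STAT3 list, Fos and Junb were the 2 lower of 12 genes, and the median was -0.57. Of 11 Nodal and activin genes Smad7, an inhibitor of receptor signalling, was the 1 lower gene at 9.37 FPKM in shLuc cells and 35.3 FPKM in +/+ cells, and Nodal itself was at 18.4 FPKM in shLuc cells and 33.6 FPKM in +/+ cells. The BMP and Id list was split. Of its 9 genes 6 were lower, 5 after centring on GC, among them Id3 at 13.2 FPKM in shLuc cells and 33.7 FPKM in +/+ cells, Id4 at 2.06 and 8.24 FPKM, the ligand Bmp7 at 3.11 and 8.601 FPKM and the pseudoreceptor Bambi at 1.29 and 5.0005 FPKM. Id1, an inhibitor of basic helix-loop-helix factors that BMP raises in these cells, was the 1 higher gene at 87.8 FPKM in shLuc cells and 30.03 FPKM in +/+ cells, with 214 FPKM in shTbx3, 17.0 FPKM in N/N and 21.0 FPKM in +/N cells. Id1 was thus above the 3 allele libraries in both hairpin libraries, while Id3 was above them in shTbx3 and below them in shLuc. Of 8 Wnt genes, the ligand Wnt7b alone passed 2-fold, at 0.843 FPKM in shLuc cells and 5.94 FPKM in +/+ cells.

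Among core pluripotency factors the POU factor Pou5f1 was at 959 FPKM in shLuc cells and 659.9 FPKM in +/+ cells, under 2-fold and with 38.6% repeated windows, and Nanog, a homeodomain factor of the naive state, at 229.5 FPKM in shLuc cells and 71.6 FPKM in +/+ cells, with 280.2 FPKM in shTbx3, 59.9 FPKM in N/N and 70.4 FPKM in +/N cells. Of 9 core genes 3 were higher and 1 lower in shLuc cells, beside 5.59% and 4.59% of all genes. Dppa4 was at 72.3 FPKM in shLuc cells and 17.6 FPKM in +/+ cells and Dppa2 at 18.6 FPKM in shLuc cells and 6.91 FPKM in +/+ cells, 2 nuclear proteins that act together. All 3 higher genes have repeated 26-base windows: 40.3% for Nanog, 68.9% for Dppa4 and 74.8% for Dppa2. For windows of 100 bases, the longer read length in the labels, the shares were 0.568%, 16.6% and 32.8%. Dppa2 came to 0.98 after centring on GC. Sall4, a zinc finger factor of the same network, was the lower gene at 31.8 FPKM in shLuc cells and 83.4 FPKM in +/+ cells, with 2.06% repeated windows. The core genes with at most 5% repeated windows were 3, with a median of -0.93.

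The naive list, 20 genes, had 2 higher and 4 lower members and a median of -0.31, beside 5.59% higher and 4.59% lower among all genes. The higher were Dppa3 and Dppa5a, at 1364 FPKM in shLuc cells and 623 FPKM in +/+ cells with 81.3% repeated windows. The lower were Tbx3, the Krüppel-like factors Klf2 (98.7 and 303 FPKM, shLuc first) and Klf5 (38.7 and 101 FPKM) and the nuclear receptor Nr0b1 (43.8 and 91.3 FPKM). Klf5 and Nr0b1 came to -0.89 and -0.85 after centring on GC. Formative and primed genes, which mark the step toward epiblast, were split as well, with 4 of 16 higher and 2 lower. Fgf5, a growth factor of the epiblast, was at 3.41 FPKM in shLuc cells and 0.352 FPKM in +/+ cells, with 4.62 FPKM in shTbx3, 0.24 FPKM in N/N and 0.281 FPKM in +/N cells, so both hairpin libraries were above 3 FPKM and all allele libraries under 1. Dnmt3b, a de novo DNA methyltransferase, was at 68.3 FPKM in shLuc cells and 22.4 FPKM in +/+ cells, and Sall2 at 3.71 and 1.32 FPKM. The surface antigen Cd24a was at 25.9 FPKM in shLuc cells and 6.94 FPKM in +/+ cells. Of its 26-base windows 48.8% were repeated, and of its 100-base windows 1.40%. Sox3 and the POU factor Pou3f1 were lower, at 1.03 and 4.995 FPKM and 7.71 and 20.8 FPKM, and Pou3f1 came to -0.86 after centring on GC. Of the DNA methylation genes, 9 in all, Dnmt3b alone passed 2-fold.

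**Figure D4:**
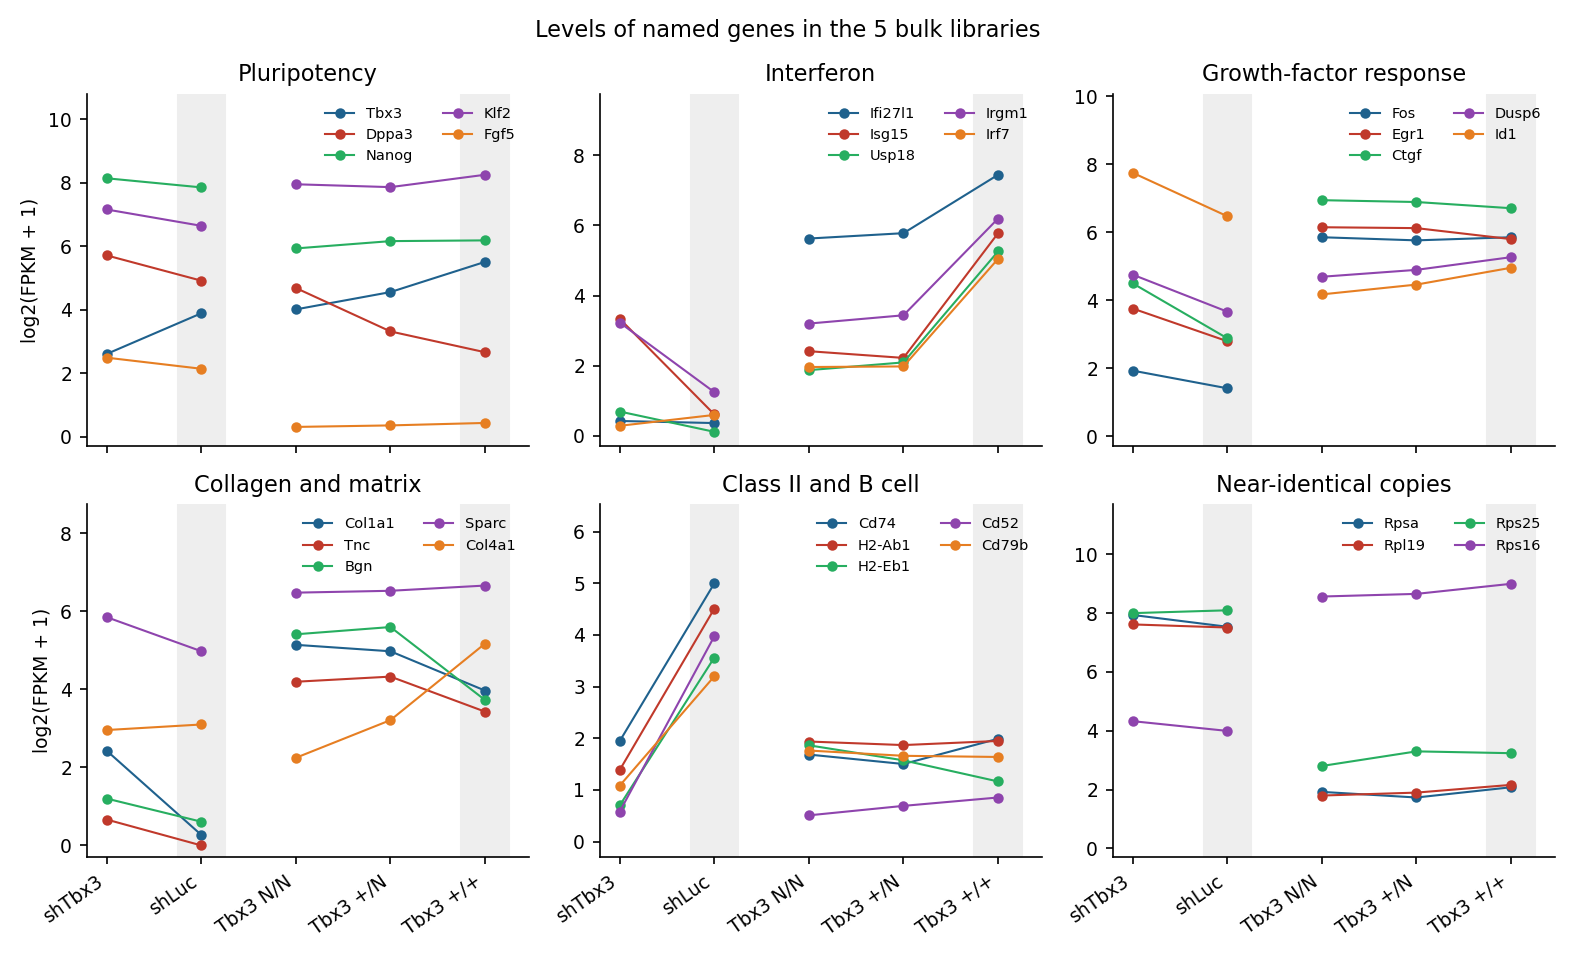
Levels of 29 named genes as log2(FPKM + 1) in the hairpin libraries (shTbx3, shLuc) and the allele libraries (N/N, +/N, +/+), 1 library each, with shLuc and +/+ shaded; lines only join points of a gene. Fos, Ctgf, Ifi27l1, Nanog, Fgf5 and the ribosomal protein genes part by set of libraries, while the class II genes are high in shLuc alone of the 5.

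Of 9 primitive and definitive endoderm genes 6 were lower in shLuc cells and 0 higher, beside 4.59% and 5.59% of all genes. Their median was -1.13. The endocytic receptor Cubn and its partner Amn were at 0.348 and 4.30 FPKM and 1.06 and 7.48 FPKM, shLuc first, and the factors Gata6 and Gata4 at 0.213 and 3.14 FPKM and 0.758 and 4.06 FPKM. The sum over the endoderm list was 18.2 FPKM in shTbx3 and 7.62 FPKM in shLuc, against 7.59 FPKM in N/N, 10.6 FPKM in +/N and 33.3 FPKM in +/+ cells. Against N/N cells in place of +/+ the list median turned to 0.20. Cited1 lost its call after centring on GC (-0.67). Basement membrane genes followed, with 7 of 11 lower and a median of -1.097, or -0.92 with 5 lower after centring. The collagen IV chains Col4a1 and Col4a2 were at 7.58 and 35.1 FPKM and 2.63 and 20.5 FPKM, and the matrix glycoprotein Sparc at 30.5 FPKM in shLuc cells and 100.3 FPKM in +/+ cells. The laminin chain Lama1 was at 9.43 and 21.3 FPKM, -0.92 after centring. Against N/N cells, Col4a1, Lama1 and the endocytic adaptor Dab2 were above 0, at 0.85, 1.24 and 0.68.

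Collagen and fibroblast genes were below their +/+ level in shLuc cells in all 15 of the list, 13 of them by at least 2-fold, with a median of -1.56, beside 4.59% lower among all genes. Col1a1, a chain of collagen I, was at 0.205 FPKM in shLuc cells and 14.7 FPKM in +/+ cells, with 4.38 FPKM in shTbx3, 34.3 FPKM in N/N and 30.5 FPKM in +/N cells. Its partner Col1a2 was at 0.045 FPKM in shLuc cells and 7.43 FPKM in +/+ cells, the proteoglycan Bgn at 0.524 FPKM in shLuc cells and 12.2 FPKM in +/+ cells and Fbln2, a fibulin, at 1.08 FPKM in shLuc cells and 13.1 FPKM in +/+ cells. Postn, periostin, is listed at 0 in shLuc cells and was at 2.63 FPKM in +/+ cells. Tnc, tenascin C, a matrix gene outside the list, is likewise listed at 0 in shLuc cells, against 9.78 FPKM in +/+ cells. The list summed to 45.3 FPKM in shTbx3 and 21.1 FPKM in shLuc, against 256.4 FPKM in N/N, 269 FPKM in +/N and 109 FPKM in +/+ cells. In bulk libraries, fewer cells that make these transcripts and less RNA per cell cannot be told apart. The calcium-binding S100a4 of the same list was at 1.45 and 5.32 FPKM, shLuc first. Of 15 S100, galectin and annexin genes 1 was higher and 3 lower, beside 5.59% and 4.59% of all genes. The lower included Lgals9, a galectin, at 3.62 FPKM in shLuc cells and 37.5 FPKM in +/+ cells. S100a11 went the other way at 30.1 FPKM in shLuc cells and 8.85 FPKM in +/+ cells, with 83.7% repeated windows. Trophectoderm, neuroectoderm and keratin genes had 1, 0 and 0 genes lower and 0 higher, of 7, 6 and 4 compared. Among all genes 4.59% were lower and 5.59% higher. Streak genes were below 1 FPKM in both populations for 4 of the 7 in the table, T among them at 0.605 FPKM in shLuc and 0.0658 FPKM in +/+ cells, and the other 3 did not reach 2-fold.

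Class II and B cell genes were higher in shLuc cells. Class II molecules present peptides to helper T cells and belong to B cells, dendritic cells and macrophages. Of 9 genes 7 passed 2-fold in the higher direction and 0 in the lower, with a median of 1.64, beside 5.59% higher among all genes. Cd74, the invariant chain that escorts class II molecules, was at 30.9 FPKM in shLuc cells and 2.97 FPKM in +/+ cells, with 2.85 FPKM in shTbx3, 2.21 FPKM in N/N and 1.83 FPKM in +/N cells. The class II chains H2-Ab1 and H2-Eb1 were at 21.8 FPKM in shLuc cells and 2.86 FPKM in +/+ cells and at 10.8 FPKM in shLuc cells and 1.24 FPKM in +/+ cells. Cd52, a small glycoprotein of lymphocytes, was at 14.7 FPKM in shLuc cells and 0.807 FPKM in +/+ cells, with 0.497 FPKM in shTbx3, 0.423 FPKM in N/N and 0.615 FPKM in +/N cells. The B cell receptor subunits Cd79a and Cd79b were at 4.93 and 0.899 FPKM and 8.18 and 2.11 FPKM, shLuc first, with 32.3% and 0% repeated windows. The 9 genes summed to 107 FPKM in shLuc, against 12.4 FPKM in shTbx3, 20.5 FPKM in N/N, 18.8 FPKM in +/N and 18.3 FPKM in +/+ cells, so shLuc stood apart from every other library, the other hairpin library included. The other 9 genes written in the list were not analysed here. Of 3 leukocyte and macrophage genes compared, 1 was higher and 1 lower. Coro1a, an actin regulator of leukocytes, was at 22.9 FPKM in shLuc cells and 3.92 FPKM in +/+ cells. At 10.8 FPKM in shTbx3 cells, it was above all 3 allele libraries in both hairpin libraries. The macrophage gene Cd68 was at 6.03 FPKM in shLuc cells and 17.2 FPKM in +/+ cells, and Laptm5 at 16.5 and 24.3 FPKM, under 2-fold. The part of other cells or of RNA from another library in these values was not tested.

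Machinery that processes hairpins and silences inserted vectors was checked, since 1 population carries a hairpin. Among all genes 5.59% were higher and 4.59% lower. Of 11 small RNA pathway genes 1 was higher and 0 lower: Dgcr8, which with Drosha crops microRNA precursors, at 17.2 FPKM in shLuc cells and 7.41 FPKM in +/+ cells. The export factor Xpo5, which carries hairpins out of the nucleus, was at 29.8 FPKM in shLuc cells and 22.9 FPKM in +/+ cells, and the Dicer partner Tarbp2 at 21.1 FPKM in shLuc cells and 12.6 FPKM in +/+ cells, with 76.1% repeated windows. Of 14 genes of provirus silencing Atrx alone passed 2-fold, at 27.4 FPKM in shLuc cells and 11.4 FPKM in +/+ cells, and came to 0.54 after centring on GC. Of 20 Polycomb and trithorax genes 0 passed 2-fold in either direction.

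Germline and imprinted genes held a few large differences. Sycp3, a protein of the meiotic chromosome axis, was at 22.5 FPKM in shLuc cells and 4.84 FPKM in +/+ cells, and Sycp1, of the same complex, at 4.63 FPKM in shLuc cells and 0.738 FPKM in +/+ cells. The X-linked homeobox genes Rhox6 and Rhox9 were lower, at 3.749 and 9.58 FPKM and 3.70 and 9.40 FPKM, and have 36.5% and 42.9% repeated windows. After centring on GC Rhox6 came to -0.98, under 2-fold, and Rhox9 to -1.20. In all 3 of 13 germline genes were higher and 2 lower, beside 5.59% and 4.59% of all genes. Among 19 imprinted genes, Meg3 and Rian, noncoding RNAs of one maternally expressed cluster, were higher at 57.1 and 25.7 FPKM and 40.6 and 12.95 FPKM, and Rian came to 0.91 after centring. Igf2 and H19, neighbours that are expressed from opposite parental alleles, were both lower, at 0.871 and 4.24 FPKM and 10.9 and 34.2 FPKM, as was Peg10 at 34.5 and 80.4 FPKM. Zscan4 genes of the 2-cell-like state, all with near-identical copies, did not reach 2-fold, with Zscan4d at 4.49 and 4.29 FPKM.

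By chromosome, the 370 X-linked genes had a median of 0.30 and 12.4% of them were at least 2-fold higher, while the medians of the autosomes ran from -0.10 (chromosome 7) to 0.17 (chromosome 13). With at most 5% repeated windows and centring on GC the X median was -0.05, inside the autosomal range of -0.12 to 0.02. The 3 Y-linked genes compared were all higher: the initiation factor Eif2s3y at 46.6 FPKM in shLuc cells and 18.5 FPKM in +/+ cells, the demethylase Uty at 4.75 FPKM in shLuc cells and 1.29 FPKM in +/+ cells and the helicase Ddx3y at 9.98 FPKM in shLuc cells and 3.16 FPKM in +/+ cells. They came to 0.62, 0.66 and 0.73 after centring, under 2-fold.

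**Figure D5:**
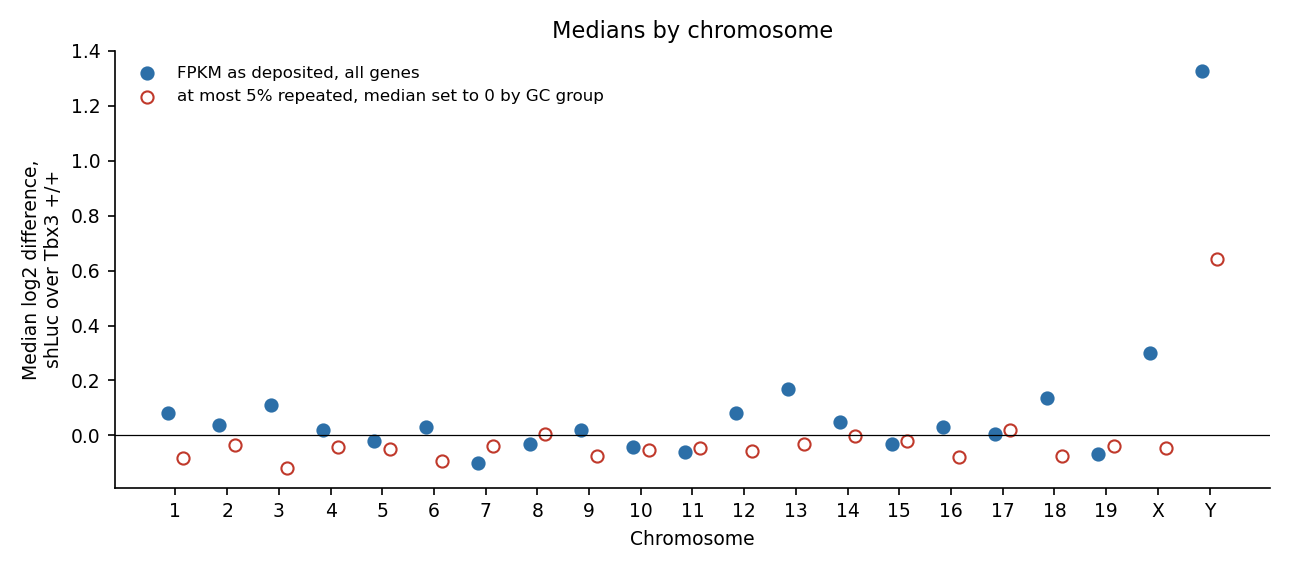
Median difference between shLuc and Tbx3 +/+ cells per chromosome, as deposited (filled) and for genes with at most 5% repeated windows after the median was set to 0 within 20 groups of GC (open). X stands at 0.30 as deposited and at -0.05 after both steps, and Y, with 3 genes in all and 2 in the second set, at 1.33 and 0.64.

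Cytosolic ribosomal protein genes held large differences in both directions, and most have many repeated windows. Of 84 genes 38 were higher and 6 lower, beside 5.59% and 4.59% of all genes, with a median of 0.67. Their median repeated share was 59.6%, and 3 had at most 5%. Rpsa, the laminin-receptor protein of the small subunit, was at 184.8 FPKM in shLuc cells and 3.22 FPKM in +/+ cells, with 244 FPKM in shTbx3, 2.78 FPKM in N/N and 2.32 FPKM in +/N cells. Rpl19 was at 182 FPKM in shLuc cells and 3.46 FPKM in +/+ cells and Rps25, with 63.7% repeated windows, at 273 FPKM in shLuc cells and 8.43 FPKM in +/+ cells. Rps16 went the other way, at 14.9 FPKM in shLuc cells and 511 FPKM in +/+ cells, with 19.06 FPKM in shTbx3, 378 FPKM in N/N and 403 FPKM in +/N cells. Within the +/+ library alone, levels per length were 3.22 FPKM for Rpsa and 511 FPKM for Rps16. These values are uncertain, since the labels do not say how reads from copies were counted. Replication histone genes, another family of near-identical members, had 14 of 27 higher and 1 lower, with Hist1h3e at 18.998 FPKM in shLuc cells and 0.194 FPKM in +/+ cells and Hist1h4f at 9.44 FPKM in shLuc cells and 0.72 FPKM in +/+ cells. These have 86.9% and 57.1% repeated windows. Their transcripts end in a stem-loop in place of a poly(A) tail.

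Other growth and metabolic lists differed by less. Their counts stand beside 5.59% higher and 4.59% lower among all genes. Mitochondrial ribosomal proteins had 10 of 75 higher and 0 lower and a median of 0.43, or 0.31 in the 41 with at most 5% repeated windows. Mrpl13 was at 92.2 FPKM in shLuc cells and 33.8 FPKM in +/+ cells and Mrpl47 at 43.4 FPKM in shLuc cells and 16.2 FPKM in +/+ cells. Of 20 aminoacyl-tRNA synthetases 18 were above 0 and 0 reached 2-fold, with a median of 0.40. The respiratory chain had 10 of 77 higher and 2 lower, with the complex I subunits Ndufa5 at 91.8 FPKM in shLuc cells and 28.6 FPKM in +/+ cells and Ndufc2 at 145 FPKM in shLuc cells and 51.1 FPKM in +/+ cells. Splicing genes had 4 of 24 higher and 0 lower, and a median of 0.42, which was 0.12 in the 9 with at most 5% repeated windows. After centring on GC the median was 0.11 and 1 gene was higher. That gene, the splicing factor Srsf3, was at 97.4 FPKM in shLuc cells and 28.2 FPKM in +/+ cells with 54.8% repeated windows. Glycolysis and hypoxia genes had 1 of 22 higher and 4 lower, with a median of -0.37. Of these the enolase Eno1 (33.6 and 110.2 FPKM, shLuc first) and the kinase Pgk1 (54.6 and 16.7 FPKM) differed in opposite directions with 78.6% and 94.3% repeated windows, while Hk1, a hexokinase with 1.32%, was at 13.2 and 33.1 FPKM. Of 27 cell cycle genes 1 was higher and 1 lower. Of 16 p53 targets 0 were higher and 3 lower, with a median of -0.28, and 1 stayed lower after centring on GC.

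Stress and metabolic lists held few calls. Most of these lists had at most 1 gene called in a direction, beside 5.59% higher and 4.59% lower among all genes. Of 11 heat shock genes 3 were higher and 0 lower, and the median was 0.06. The chaperone Hspa8 was higher at 129 FPKM in shLuc cells and 17.0 FPKM in +/+ cells, with 81.6% repeated windows. The other higher genes, Hspd1 and Hspe1, had 75.7% and 59.5%. Of the 3 list genes with at most 5% repeated windows 0 were higher, and their median was -0.47. Of 14 genes of the amino acid response 2 were higher, the serine synthesis enzymes Phgdh (34.8 and 9.58 FPKM, shLuc first) and Psat1 (134 and 60.98 FPKM). Phgdh has 86.5% repeated windows and Psat1 9.53%. Of 12 oxidative and metal genes Prdx1, a peroxidase, was the 1 higher at 492 FPKM in shLuc cells and 228 FPKM in +/+ cells, and the metallothionein Mt1 the 1 lower at 148 FPKM in shLuc cells and 365 FPKM in +/+ cells. Prdx1 came to 0.61 after centring on GC. The 13 endoplasmic reticulum stress genes had 0 higher and 1 lower, the 14 Myc targets 1 and 0, the 18 cholesterol and lipid genes 1 and 1 and the 12 epithelial junction genes 0 and 1. After centring on GC the calls of the Myc, cholesterol and epithelial lists named here were all lost, and 1 other epithelial junction gene was higher. Of 8 retinoid genes Crabp2, which carries retinoic acid, alone passed 2-fold, at 6.42 FPKM in shLuc cells and 1.80 FPKM in +/+ cells.

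Of 14 long noncoding RNAs 6 were higher and 3 lower, beside 5.59% and 4.59% of all genes, with a median of 0.89. Some had no value for GC. Malat1, of nuclear speckles, was at 163 FPKM in shLuc cells and 17.5 FPKM in +/+ cells, with 175 FPKM in shTbx3, 53.2 FPKM in N/N and 52.5 FPKM in +/N cells, and Neat1, of paraspeckles, at 62.8 FPKM in shLuc cells and 15.7 FPKM in +/+ cells. Both have few repeated windows (2.53% and 3.17%) and were above all 3 allele libraries in both hairpin libraries. Rmrp, the RNA of a nuclear ribonuclease, was at 287 FPKM in shLuc cells and 42.1 FPKM in +/+ cells. The ribosomal RNA precursor Rn45s is listed at 0 in both hairpin libraries, and was at 1768 FPKM in N/N, 1336 FPKM in +/N and 494 FPKM in +/+ cells. Lars2, a mitochondrial leucyl-tRNA synthetase, was at 458 FPKM in shLuc cells and 15.9 FPKM in +/+ cells, with 498 FPKM in shTbx3, 51.0 FPKM in N/N and 39.0 FPKM in +/N cells.

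The other libraries show which differences run between the 2 sets. In 4274 genes (37.6%) both hairpin libraries were above all 3 allele libraries and in 2163 (19%) below them, so such a separation is common. It was seen for 597 of the 635 higher genes (94.02%) and 407 of the 522 lower genes (77.97%), counts that use shLuc and +/+ themselves. The comparison of shTbx3 with N/N shares no library with this one but crosses the same sets, and there Tbx3 is reduced on both sides. Across the 11361 genes its differences ran with those of shLuc against +/+ (Pearson r 0.650, Spearman rho 0.565, and Pearson r 0.540 over the 8507 genes with few copies), while genes share copies and base composition. In shTbx3 over N/N, 1069 of all 11361 genes were at least 2-fold higher and 450 at least 2-fold lower. Of the genes higher in shLuc, 364 (57.3%) were also higher there, which is 34.1% of the 1069, beside 5.59% of all genes. Of the lower, 189 (36.2%) were also lower, which is 42% of the 450, beside 4.59% of all genes. The median of all genes was 0.22 in that comparison. Lists with medians of the same sign in shLuc over +/+ and shTbx3 over N/N included fibroblast genes (-1.56 and -2.72), replication histones (1.12 and 1.27), tRNA synthetases (0.40 and 0.39) and mitochondrial ribosomal proteins (0.43 and 0.69). For other lists, in the same order, interferon genes had -1.88 and -0.27, class II genes 1.64 and -0.31, endoderm genes -1.13 and -0.01, and keratins -0.64 and 2.28.

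Single wild-type R1 cells sorted for the surface antigen SSEA1, from a culture the labels do not name, show how widely the differing genes are detected. Genes higher in shLuc cells were at 1 FPKM or more in a median of 17 of 45 cells, genes lower in shLuc cells in 1 and all genes in 4. In 38.3% of the lower genes and 6.30% of the higher genes 0 cells reached 1 FPKM, against 17.3% of all genes. The median level of the lower and the higher genes was 12.9 and 8.42 FPKM in +/+ cells, but 3.35 and 24.2 FPKM in shLuc cells. The genes were picked by these bulk levels, so the bulk medians follow from that choice. In the SSEA1 pool, which was scaled separately, the medians were 6.15 FPKM for the lower and 23.8 FPKM for the higher genes. With at most 5% repeated windows they were 6.38 and 15.9 FPKM, lower genes first. With few copies the higher genes had a median of 10 cells. Of the 30 interferon genes 15 were in 0 cells, Usp18 and Ifi27l1 among them. A count of 0 of 45 allows up to 7.87% of cells at 1 FPKM or more, the upper end of the exact Clopper-Pearson 95% interval. This limits detection and not expression, since Pou5f1 reached 1 FPKM in 11 of the 45 cells. Fos was in 6 cells (13.3%, exact Clopper-Pearson 95% interval 5.05 to 26.8) and Nanog in 12 (26.7%, 14.6 to 41.9), intervals that cover counting error alone. Cd74 was in 0 cells and Cd52 in 1.

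Tbx3 sites, found by capture of a biotinylated Tbx3 put back into N/N cells, lay within 20 kb of the start of 99 of 505 lower genes (19.6%) and 76 of 614 higher genes (12.4%), against 1676 of 11248 genes compared (14.9%). Within 50 kb the shares were 32.7%, 22.5% and 26.6%. Lower genes with a near site include Ctgf (4404 bp), Klf2 (2602 bp), Id3 (3099 bp), Smad7 (6191 bp) and Tbx3 itself (8 bp), and higher ones Dppa3 (1400 bp), Malat1 (417 bp) and Nanog, whose start lies inside a site. With 1 library a side these shares are a description.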

How the data were processed

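Bulk RNA from R1 cells (5 libraries, 1 per population) was made into TruSeq libraries from Trizol total RNA and read as single reads of 26 or 100 bases, per the labels. The authors deposited FPKM values on mm9, for which the submitters' processing notes name TopHat, Cufflinks, Cuffdiff and HOMER. Read counts were not used here, so depth is unknown. The single-cell table (45 cells and 1 pool) holds FPKM scaled separately with TopHat and Cuffnorm, per the same notes, so levels were not compared across tables. The 3078 Tbx3 sites carry a score deposited by the authors (Bowtie 1.0 and HOMER are named in the notes), and the score was not used.

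With 1 library a side no test was made. Differences are log2 ratios after adding 1 FPKM, and genes that reached 1 FPKM in one or both libraries were compared, small RNA genes and numeric names left out, and counted past 2-fold. Named genes are Tbx3, Dppa3, the 25 largest differences each way (genes reaching 5 FPKM in one of the libraries, no predicted models) and up to 6 members with the largest difference in each of 52 gene lists. Exceptions are stated where they occur, and 2 genes that the tables hold are not reported here. The members and lists were chosen with earlier results of these data known. Repeated windows are 26-base transcript windows found elsewhere in mm9, by exact match, and 98.5% of table names were matched to the annotation. Site distance is to the gene start. Steps were tested on simulated data. Tools were Python 3.11.15, numpy 2.4.6, pandas 2.3.3, scipy 1.17.1, numba 0.67.0 and matplotlib 3.10.9. Alternatives changed the added value, fold, filter, scaling and +/+ library, and, added after seeing the data, repeated share and GC.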

Additional observations from a re-analysis of the deposited data

How the results depend on the processing

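The counts of 635 higher and 522 lower genes moved with the added value: 0.1 FPKM gave 804 lower genes, and 5 FPKM gave 327 higher and 192 lower. A 1.5-fold limit gave 1858 and 1564, and a 4-fold limit 90 and 79. Rescaling both libraries to 1 larger total over the genes kept, which also makes the added value count for less, gave 1116 lower. Limiting genes to at most 5% repeated windows gave 215 higher, centring on GC 417 higher, and both together 144 higher and 283 lower; these 3 settings were chosen after seeing the data. Of 44 lists of 5 or more genes, 8 had a median of at least 1 in size, against 2 with 5 FPKM added, 3 with +/N and 4 with N/N in place of +/+ cells. With +/N, Dab2 (0.20) and Lama1 (0.45) turned positive, and with N/N so did Dab2 (0.68), Lama1 (1.24), Col4a1 (0.85) and the endoderm median (0.20); the cause was not tested. Of 482 list medians 455 stayed within the limits set for a move. Requiring a 2-fold gap between the library sets left 271 genes above and 117 below. Setting the median to 0 gave 3181 above and 3394 below. Among the 8507 genes with few copies 2682 were above and 1846 below. These counts come from a smaller set than the 4274 above and 2163 below of all 11361 genes, so they cannot be compared directly. With few copies the higher genes were in a median of 10 cells, against 17, and 50 kb gave sites at 32.7% of lower genes, against 19.6%. No paired analysis was possible because each population has 1 library and the labels give no replicate numbers, and for the same reason no library could be left out. Differences near 1 FPKM are the least certain, and with depth unknown no counting interval can be given for bulk values.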
